A study of Homo sapiens with 12 samples.

Results

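Genes of neuroendocrine identity and the neuronal pentraxins were followed through control and GFI1-expressing A549 cells that were attached or floating. The 9 genes were NPTX1, NPTX2, NEUROD1, INSM1, CHGA, CHGB, SYP, NCAM1 and UCHL1, picked by symbol from the 58735 genes of the count table, and each symbol had 1 row. A549 cells are a human line established from a lung adenocarcinoma, a tumor type that is not neuroendocrine, and normally grow as an adherent layer. GFI1, a zinc finger transcriptional repressor of blood and neuroendocrine cell development, was delivered by a lentivirus that expressed it from the constitutive PGK promoter together with GFP, and GFP-positive cells were sorted. The 4 groups of 3 mRNA libraries were attached control, attached GFI1, floating control and floating GFI1, where floating cells had spent 48 hours in forced suspension on ultra-low attachment plates. The labels do not say whether the controls carried an empty vector, nor that the replicates came from separate cultures, so the GFI1 comparisons include any effect of transduction and sorting that the controls lacked, and p-values measure the spread between libraries, which may be technical.

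Small cell lung cancer and lung carcinoids keep features of pulmonary neuroendocrine cells, which store peptide hormones in dense-core granules and release them in response to stimuli. The diagnostic markers follow from that biology. Chromogranins A and B (CHGA, CHGB) fill dense-core granules, synaptophysin (SYP) sits in the membrane of small synaptic-like vesicles, NCAM1 (CD56) is a neural adhesion molecule, and UCHL1 (PGP9.5) is an abundant neuronal deubiquitinase. INSM1 and NEUROD1 are transcription factors that stand upstream of this program. The neuronal pentraxins NPTX1 and NPTX2 are secreted proteins that gather AMPA-type glutamate receptors at synapses, and NPTXR is their membrane-anchored relative.

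The members did not form 1 program in these cells. NPTX1 rose in GFI1-expressing cells in both states and reached its highest level in floating GFI1 cells. UCHL1 was by far the most abundant marker in control cells and fell with GFI1, CHGB rose in floating control cells but stayed low in floating GFI1 cells, and CHGA and SYP changed at low levels. NPTX2, NEUROD1, INSM1 and NCAM1 stayed at or near 0 in all 12 libraries.

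The libraries held between 17014188 and 20748677 counts, and levels are given as normalized read counts (CPM, counts scaled to the effective library size by TMM). A count of 3 in 1 library, the limit that a count of 0 allows, corresponds to between 0.138 and 0.181 CPM, for counting error only. GFI1 itself was at 0.238, 0.543 and 0.631 CPM in attached controls, at 290.4, 294 and 286 CPM in attached GFI1 libraries, at 0.711, 0.482 and 0.680 CPM in floating controls, and at 545, 706 and 430 CPM in floating GFI1 libraries, so every library matched its label. The coding sequence carried by the vector and the endogenous gene cannot be told apart in these counts. Summed markers of the lung epithelium, a list of 12 genes, ran from 10389 to 10990 CPM in attached controls and from 4226 to 4343 CPM in attached GFI1 libraries, and from 6532 to 6943 CPM and 3046 to 3416 CPM in the floating counterparts. The keratins KRT8 and KRT18 were high in attached controls, at means of 5769 and 2670 CPM, while NKX2-1 and SFTPA1 were at or under 0.287 CPM there. These are only some of the alveolar markers on the list, and NAPSA, SFTPB, SFTPC and SFTPD are not described here. Summed blood and endothelial markers, a list of 13 genes of which 8 were at or under 3 counts in every library, ran from 1.25 to 1.66 CPM in attached controls, 4.71 to 6.36 in attached GFI1, 1.70 to 1.93 in floating control and 5.57 to 6.27 in floating GFI1 libraries. The part of these marker shifts in the changes described here was not tested. Fewer cells of a type and less RNA per cell cannot be told apart in such bulk samples.

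Reference promoters were read for 5 of the 9 members (RefSeq, GRCh38.p14, 250 bases before to 50 bases after the transcript start). Those of the 3 members that could also be tested are shown because GFI1 is a DNA-binding factor, and capitals mark its core motif AATC on either strand (GATT on the strand shown).
CHGA (chr14:92922900-92923199, plus strand): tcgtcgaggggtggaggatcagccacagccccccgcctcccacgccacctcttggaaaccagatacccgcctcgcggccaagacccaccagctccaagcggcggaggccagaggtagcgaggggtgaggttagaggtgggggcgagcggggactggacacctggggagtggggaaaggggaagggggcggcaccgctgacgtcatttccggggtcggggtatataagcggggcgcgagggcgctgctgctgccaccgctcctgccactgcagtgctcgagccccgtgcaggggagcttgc
SYP (chrX:49200144-49200443, minus strand): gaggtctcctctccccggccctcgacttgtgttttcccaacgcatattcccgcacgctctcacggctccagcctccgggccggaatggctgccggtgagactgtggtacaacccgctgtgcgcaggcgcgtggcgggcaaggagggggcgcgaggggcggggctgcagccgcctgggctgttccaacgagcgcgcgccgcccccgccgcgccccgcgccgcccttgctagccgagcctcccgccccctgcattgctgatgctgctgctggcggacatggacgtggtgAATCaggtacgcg
UCHL1 (chr4:41256678-41256977, plus strand): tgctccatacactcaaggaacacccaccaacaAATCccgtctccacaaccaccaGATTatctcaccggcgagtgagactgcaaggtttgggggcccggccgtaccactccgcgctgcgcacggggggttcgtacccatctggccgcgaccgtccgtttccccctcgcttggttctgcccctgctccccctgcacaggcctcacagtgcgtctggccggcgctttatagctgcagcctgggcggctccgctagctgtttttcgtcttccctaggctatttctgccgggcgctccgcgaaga

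The core motif had 0 matches in the CHGA window, 1 in the SYP window at 38 bases after the start, and 2 in the UCHL1 window, at positions -218 and -196 from the start. Of all 35116 promoters of this length, 69% held the motif, so a match sets none of the 3 apart. The CHGA window also held the cAMP response element core TGACGT, matched once on each strand at overlapping positions -54 and -52, a motif found in 7.98% of promoters. These matches are descriptions of the letters in the windows, and binding was not measured.

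NPTX1 lies on the minus strand of chromosome 17 (17:80467148-80477843, GRCh38). Its level was 21.4, 22.3 and 23.0 CPM in the attached controls and 186, 189.3 and 187 CPM in the attached GFI1 libraries. The floating controls held 6.34, 5.06 and 5.61 CPM, whereas the floating GFI1 libraries held 661, 1027 and 309 CPM. No group overlapped another, in the order floating GFI1, attached GFI1, attached control and floating control, as was the case for 67.0% of all tested genes between the attached groups, 64.4% between the floating groups, 49.9% between the control groups and 41.4% between the GFI1 groups. Suspension was thus accompanied by opposite changes in the 2 cell states, a fall in control cells and a rise in GFI1-expressing cells.

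In edgeR's quasi-likelihood test, NPTX1 was 8.43-fold higher with GFI1 in attached cells, a log2 fold change of 3.08 ± 0.26 (SE, n = 3 against 3, adjusted p = 1.21e-10). In floating cells it was 117-fold higher, at 6.87 ± 0.31 on the log2 scale (edgeR adjusted p = 6.28e-16). Suspension lowered it 3.92-fold in control cells, by a log2 fold change of -1.97 ± 0.39 (edgeR adjusted p = 0.000228), and raised it 3.55-fold in GFI1-expressing cells, by 1.83 ± 0.21 (edgeR adjusted p = 2.22e-07). The difference between these responses, the interaction term, was 3.80 ± 0.44 on the log2 scale (edgeR adjusted p = 1.24e-06). GFI1 itself was 1.93-fold higher in floating than in attached GFI1-expressing cells (log2 fold change 0.95 ± 0.10, edgeR adjusted p = 2.38e-08). The part of that rise in the floating and interaction values, for NPTX1 and the other genes, was not tested. The floating GFI1 libraries varied among themselves more than any other group, with a mean of 666 ± 359 CPM (SD, n = 3) against 188 ± 1.65 CPM in attached GFI1 cells. Over all genes too these libraries stood further apart, with a chi-square per gene of 11.2 between replicates 2 and 3 and of 4.64 and 4.78 between the other pairs, against 1.98 to 3.52 between replicates of the other groups. Their order in NPTX1, replicate 2 above 1 above 3, was also their order in GFI1, and the part of GFI1 dose in the NPTX1 spread was not tested. With each library left out in turn the GFI1 effect in floating cells stayed between 6.42 and 7.22, the suspension effect in GFI1-expressing cells between 1.35 and 2.17, and the interaction between 3.32 and 4.14 on the log2 scale.

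**Figure D1:**
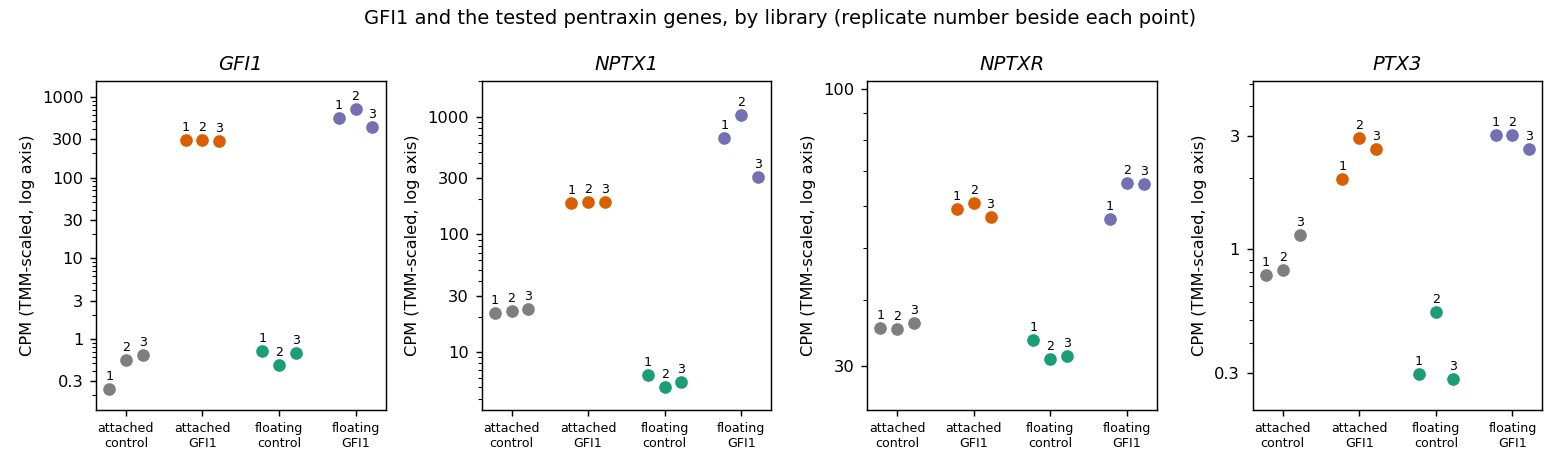
CPM on log axes of GFI1, NPTX1, NPTXR and PTX3 in the 12 libraries, each point a library with its replicate number beside it. The floating GFI1 libraries stand in the same order for GFI1 (706, 545 and 430 CPM) as for NPTX1 (1027, 661 and 309 CPM), and floating controls hold the lowest NPTX1 levels.

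The rest of the pentraxin family and the receptors it binds put NPTX1 in context. Of the 7 pentraxin genes, 3 were abundant enough to test, namely NPTX1 itself, NPTXR and PTX3. With GFI1, 3 of 3 were higher in attached and in floating cells, where 29.5% and 29.3% of all tested genes were. Since NPTX1 is 1 of the 3, only NPTXR and PTX3 add to its own result. NPTXR held 35.4, 35.1 and 36.0 CPM in attached controls against 59.2, 60.9 and 57.4 CPM in attached GFI1 libraries, and 33.5, 30.9 and 31.3 CPM against 56.9, 66.4 and 66.0 CPM in the floating ones. Its log2 fold changes were 0.74 ± 0.06 attached and 0.99 ± 0.06 floating (edgeR adjusted p = 5.77e-11 and 2.58e-13). PTX3, the long pentraxin of inflammation, was at 0.774, 0.815 and 1.15 CPM in attached controls and rose to between 1.97 and 2.95 CPM with GFI1, whereas in floating cells it stood between 0.283 and 0.542 CPM in controls and between 2.64 and 3.03 CPM with GFI1. PTX3 thus fell in suspension in control cells (-1.28 ± 0.38, edgeR adjusted p = 0.00788), as NPTX1 did. NPTX2, on the plus strand of chromosome 7 (7:98617297-98629868), had between 0 and 5 counts in every library and 0 counts in each attached GFI1 library. None of the 4 AMPA receptor subunit genes had enough counts to be tested.

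UCHL1 (4:41256413-41268455, plus strand) was the most abundant member per length in every group, with 225 CPM per kilobase in attached controls, 229 in floating controls, 124 in attached GFI1 cells and 114 in floating GFI1 cells. In attached controls that placed it at rank 139 of all genes in CPM per kilobase. NPTX1 came nearest to it in floating GFI1 cells, at 99.3 ± 53.5 CPM per kilobase against 114 ± 16.8 for UCHL1 (SD, n = 3), a gap smaller than the spread of the NPTX1 libraries. By library, UCHL1 stood at 525, 484 and 532 CPM in attached controls and at 528, 548 and 489 CPM in floating controls. With GFI1 it stood at 288, 278 and 286 CPM when attached and at 252, 225 and 300.4 CPM when floating. The GFI1 and control libraries did not overlap in either state, whereas the attached and floating libraries of the same cells did. Of all tested genes, 67.0% did not overlap between the attached groups and 64.4% between the floating groups.

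UCHL1 fell with GFI1 in attached cells, with a log2 fold change of -0.85 ± 0.07 (1.81-fold lower, edgeR adjusted p = 3.85e-11), and in floating cells, with -1.01 ± 0.07 (2.01-fold lower, edgeR adjusted p = 1.67e-12). The suspension effect was 0.02 ± 0.07 in control cells (edgeR adjusted p = 0.821) and -0.13 ± 0.07 in GFI1-expressing cells (edgeR adjusted p = 0.152), and the interaction was -0.15 ± 0.10 (edgeR adjusted p = 0.358). Without floating GFI1 replicate 3, which held the highest of the 3 levels, the last 2 values became -0.25 and -0.28, with edgeR adjusted p of 0.000397 and 0.00773. Without floating GFI1 replicate 2, which held the lowest level, they became -0.05 and -0.08. Over all libraries left out in turn, their edgeR adjusted p reached 0.565 and 0.609. Among the other 3 ubiquitin carboxyl-terminal hydrolases, UCHL5, a deubiquitinase of the proteasome, also fell (-0.51 ± 0.05 attached and -0.52 ± 0.05 floating, edgeR adjusted p = 1.80e-09 and 2.89e-09), and BAP1 and UCHL3 did not pass the test in either state, except that BAP1 was higher when libraries were scaled by total counts alone (0.12 attached and 0.16 floating, edgeR adjusted p = 0.0208 and 0.00381). UCHL1 shares 135 exonic bases with the antisense gene UCHL1-DT, and the strand setting of the counting is not given in the sources used here.

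CHGB (20:5911430-5925361, plus strand) responded to suspension in control cells. Its level was 4.82, 5.38 and 4.36 CPM in attached controls and 15.0, 14.1 and 12.8 CPM in floating controls. In GFI1-expressing cells it was 2.82, 4.06 and 3.00 CPM when attached and 4.52, 2.87 and 4.33 CPM when floating. The floating controls stood above every other library, while the attached and floating GFI1 libraries overlapped. Groups without overlap were common, at 64.4% of all tested genes between the floating groups and 49.9% between the control groups.

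Suspension raised CHGB 2.87-fold in control cells (log2 fold change 1.52 ± 0.15, edgeR adjusted p = 4.86e-09). In GFI1-expressing cells the value was 0.24 ± 0.18 (edgeR adjusted p = 0.347), and the 2 responses differed by -1.29 ± 0.23 (edgeR adjusted p = 0.000391). With GFI1, CHGB was lower, with log2 fold changes of -0.55 ± 0.17 in attached cells (edgeR adjusted p = 0.00788) and -1.83 ± 0.15 in floating cells (3.56-fold lower, edgeR adjusted p = 6.44e-11).

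CHGA (14:92923080-92935293, plus strand) was rarer. Attached controls held 7, 14 and 10 counts, which is 0.417, 0.760 and 0.574 CPM. The attached GFI1 libraries held 1.58, 1.57 and 1.45 CPM, the floating controls 1.54, 1.63 and 1.36 CPM, and the floating GFI1 libraries 1.93, 2.10 and 1.59 CPM. Attached controls were below every other library, and the remaining groups lay close together, with those of floating cells overlapping. Among all tested genes, 67.0% did not overlap between the attached groups and 49.9% between the control groups.

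GFI1 was accompanied by a 2.59-fold higher CHGA level in attached cells (1.37 ± 0.29, edgeR adjusted p = 0.000243), and suspension by a 2.54-fold higher level in control cells (1.35 ± 0.30, edgeR adjusted p = 0.000714). Neither GFI1 in floating cells (0.31 ± 0.24) nor suspension in GFI1-expressing cells (0.28 ± 0.24) gave a difference past the threshold (edgeR adjusted p = 0.286 and 0.409). The interaction was -1.06 ± 0.39, with an edgeR adjusted p of 0.0804, so a difference between the responses is not established at this depth. CHGA and CHGB therefore both rose in suspension in control cells, and moved in opposite directions with GFI1 in attached cells.

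SYP (X:49187804-49200259, minus strand) varied least. It stood at 5.84, 6.14 and 6.60 CPM in attached controls, 7.89, 8.26 and 7.26 CPM in attached GFI1 libraries, 5.33, 6.08 and 4.93 CPM in floating controls and 7.23, 8.77 and 7.21 CPM in floating GFI1 libraries. Each GFI1 group lay above its control group, where 67.0% of all tested genes did not overlap attached and 64.4% floating. The attached and floating libraries of the same cells overlapped. SYP rose 1.26-fold with GFI1 in attached cells (0.33 ± 0.12, edgeR adjusted p = 0.0214) and 1.42-fold in floating cells (0.51 ± 0.13, edgeR adjusted p = 0.00132). The attached call was lost without attached control replicate 1 or 2 or attached GFI1 replicate 2, with edgeR adjusted p of 0.0728, 0.0529 and 0.0807, and without the filter on low counts, at 0.0622. The suspension effects were -0.19 ± 0.13 and -0.02 ± 0.12 (edgeR adjusted p = 0.286 and 0.943). The gene shares 68 exonic bases with the antisense gene SYP-AS1.

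The remaining markers stayed unexpressed at this depth. NEUROD1 (2:181673088-181680876, minus strand) had 1 count in floating GFI1 replicate 2 and 0 in the other libraries. INSM1 (20:20368121-20370949, plus strand) had 2 counts in floating control replicate 1 and 0 elsewhere. NCAM1 (11:112961247-113278436, plus strand) had between 0 and 3 counts in each library, with 6 in total in attached controls, 7 in attached GFI1, 3 in floating controls and 5 in floating GFI1. NPTX2, described above, had 5 counts in the library where it was highest. These levels lie at or close to the limit set by a count of 0, so no fold change is given, and a difference between groups was not detectable.

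**Figure D2:**
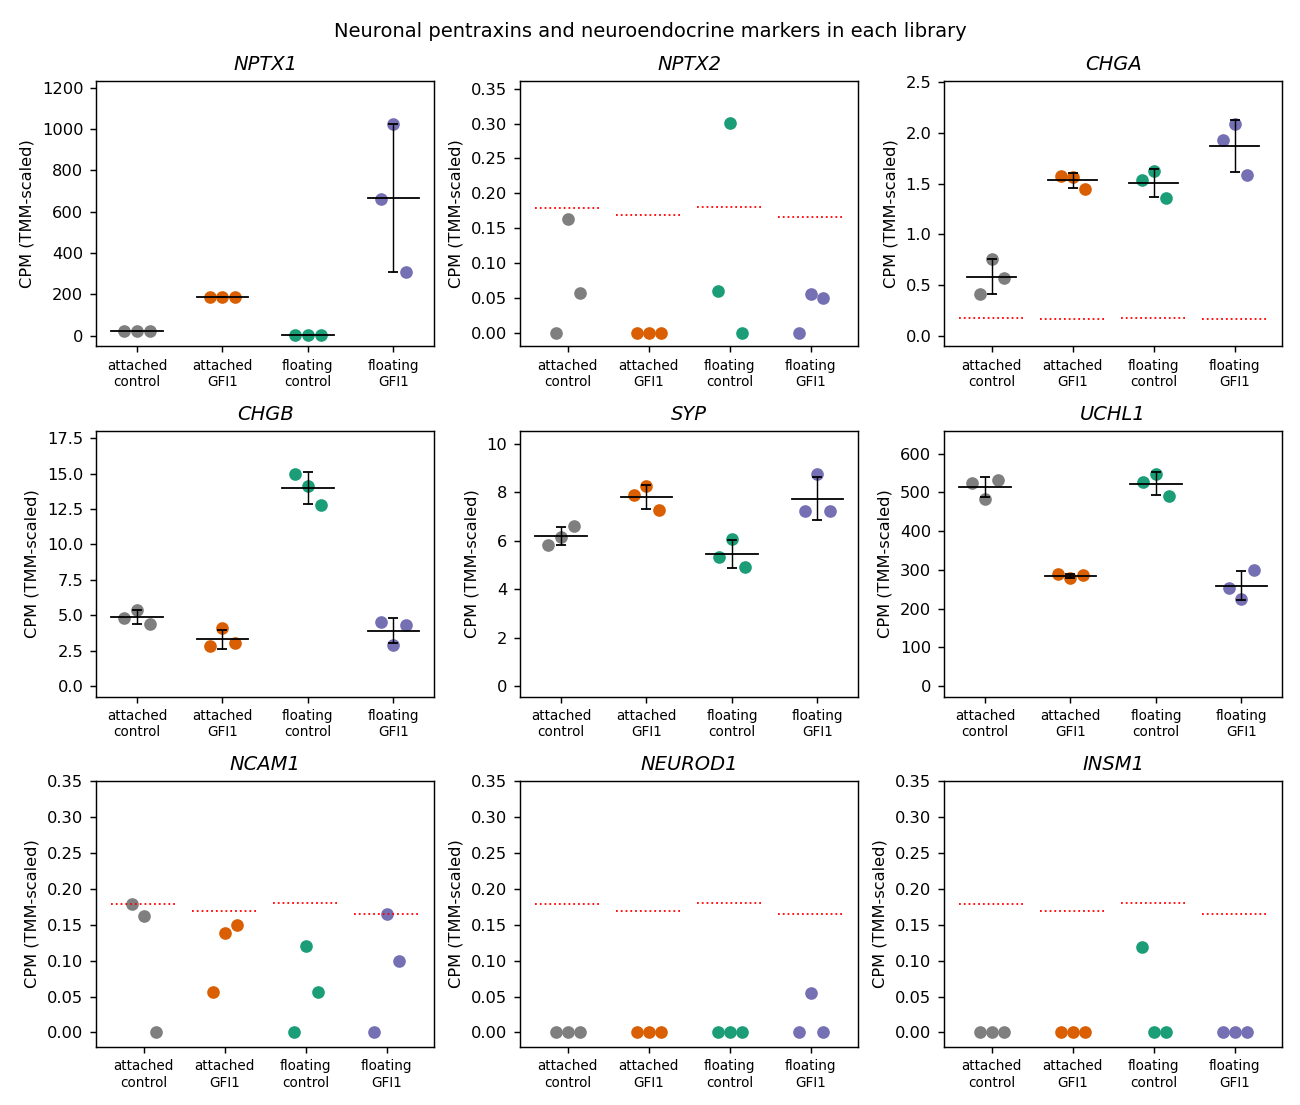
CPM of the 9 genes in the 12 libraries, each point a library, on a separate linear axis per gene. Bars give the mean and SD of each group where the gene could be tested, and red dotted lines in the panels of the rarest genes give the highest CPM value of 3 counts in a library of that group. NPTX1 is highest in floating GFI1 cells, UCHL1 is lower in both GFI1 groups, CHGB is highest in floating controls, and the 4 untested genes lie at or near 0.

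Over the 9 members, 5 passed the filter on low counts, which needs enough counts in at least 3 libraries and which a gene can pass through 1 high group alone. In attached cells 5 of these differed with GFI1 (3 higher, 2 lower), at a background of 62.3% of all tested genes (29.5% higher, 32.8% lower), and in floating cells 4 differed (2 higher, 2 lower), at a background of 60.4% (29.3% higher, 31.1% lower). Suspension changed 3 of them in control cells (2 higher, 1 lower), where 40.1% of all tested genes were past the threshold (19.6% higher, 20.5% lower), and 1 in GFI1-expressing cells (1 higher), where 31.3% were (15.0% higher, 16.3% lower). The interaction was past the threshold for 2 (NPTX1 positive, CHGB negative), against 10.8% of all tested genes (4.76% positive, 6.01% negative). With so high a background, and only 5 genes, these shares do not set the members apart from other genes, and the size and direction of the single genes carry the description. The median log2 fold change of the tested members was 0.33 in attached and 0.31 in floating cells, beside medians over all genes of -0.01 and 0.01.

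**Figure D3:**
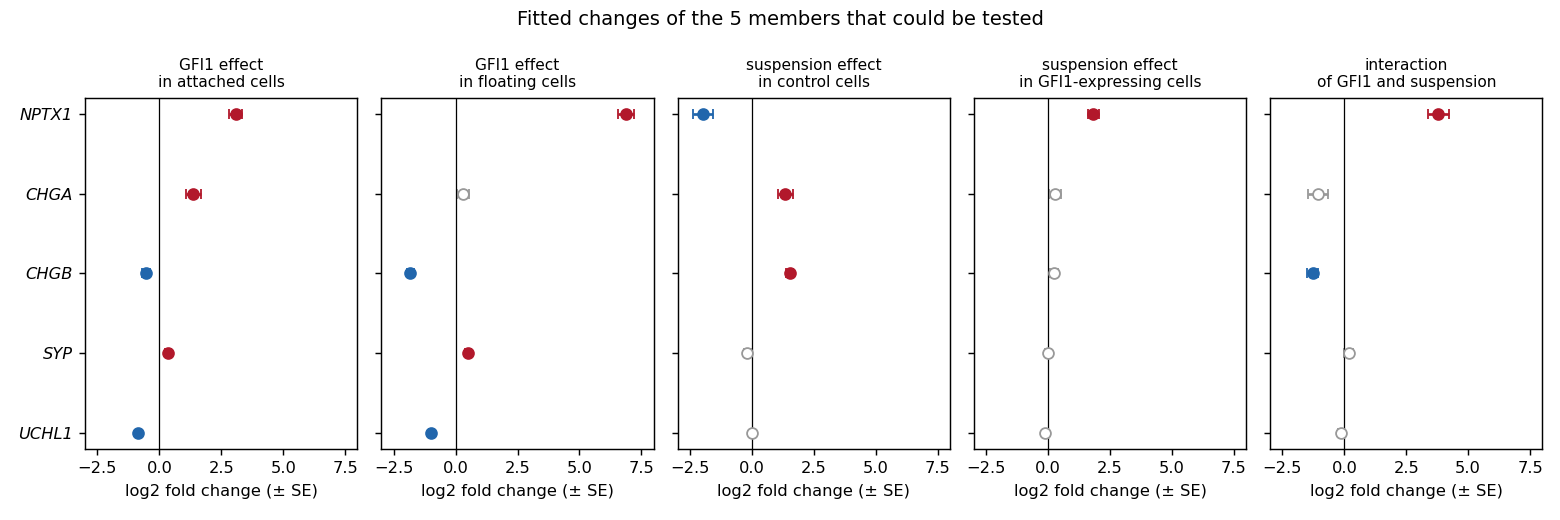
Fitted log2 fold changes of the 5 tested members in the 5 comparisons, with error bars of 1 SE. Filled red and blue points are higher and lower with an edgeR adjusted p of 0.05 or less, and open grey points did not pass. NPTX1 has values of 3.08 and 6.87 for GFI1 and -1.97 and 1.83 for suspension, and only NPTX1 and CHGB have filled points in the interaction panel.

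Lineage transcription factors of neuroendocrine lung cells, a list of 22 genes, were mostly too rare to test. Of these, 8 were at or under 3 counts in all 12 libraries, the members NEUROD1 and INSM1 among them, and 9 could be tested. With GFI1, 3 rose and 4 fell in attached cells, and 3 rose and 3 fell in floating cells. Over all tested genes, the shares that each list is read against were 29.5% higher and 32.8% lower attached, and 29.3% higher and 31.1% lower floating. The attached calls include MYT1, lost with DESeq2, upper quartile or library size scaling or when each of 4 libraries was left out (edgeR adjusted p of up to 0.211, without attached control replicate 2), and NKX2-1, lost without attached GFI1 replicate 2 (edgeR adjusted p = 0.0605). NKX2-1 could pass the filter on low counts only through its GFI1 libraries, so its place among the risers in both states follows from the filter. ONECUT2, a homeobox factor of liver and neuroendocrine cells, fell (log2 fold changes of -1.35 ± 0.13 attached and -2.32 ± 0.13 floating, edgeR adjusted p = 2.10e-09 and 7.15e-14). SOX2, a progenitor factor that is often amplified in small cell lung cancer, fell (log2 fold changes of -0.74 ± 0.08 attached and -1.46 ± 0.09 floating, edgeR adjusted p = 2.81e-08 and 1.35e-13), and FOXA2 fell (log2 fold changes of -0.96 ± 0.06 attached and -0.85 ± 0.06 floating, edgeR adjusted p = 1.51e-13 and 2.11e-12). MYCL, a MYC family gene, rose by 0.78 ± 0.21 and 1.72 ± 0.21 (edgeR adjusted p = 0.00253 and 1.10e-07), and POU4F1 rose by 0.51 ± 0.15 and 0.69 ± 0.15 (edgeR adjusted p = 0.00489 and 0.000290).

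Dense-core granule and neuropeptide genes were split. The list includes CHGA and CHGB themselves, so its counts are not separate from those members. CHGA is among the attached risers, and CHGB is among the genes that fell in both states. Of 22, 14 could be tested, of which 5 rose and 7 fell with GFI1 in attached cells and 4 rose and 6 fell in floating cells (all tested genes: 29.5% and 32.8% attached, 29.3% and 31.1% floating). In attached and floating GFI1 libraries PCSK1 had at most 3 and 4 counts, and DDC at most 9 and 7. Both could pass the filter on low counts only through their control libraries, so their place among the falling genes follows from the filter. The attached risers include SCG2 and SYT7, whose calls were lost in 3 and 5 of the fits that left out a library (edgeR adjusted p of up to 0.0764 without attached control replicate 3, and 0.108 without attached GFI1 replicate 2), and for SYT7 also with DESeq2 (adjusted p = 0.0546) and without the filter (0.0521). Prohormone processing divided within itself. CPE, the carboxypeptidase that trims peptide hormones, rose by 1.54 ± 0.13 and 1.30 ± 0.11 on the log2 scale (edgeR adjusted p = 1.03e-10 and 2.43e-10) and the granin VGF by 1.42 ± 0.19 and 1.27 ± 0.19 (edgeR adjusted p = 3.76e-07 and 2.42e-06). The prohormone convertase PCSK1 was at least 7.98-fold lower in attached GFI1 cells, where each library was at or under 3 counts. The amidating enzyme PAM fell (log2 fold changes of -0.66 ± 0.08 attached and -1.08 ± 0.07 floating, edgeR adjusted p = 4.62e-08 and 2.27e-12), and DDC, an enzyme of amine hormone synthesis, fell (log2 fold changes of -3.61 ± 0.35 attached and -4.38 ± 0.40 floating, edgeR adjusted p = 1.66e-09 and 5.89e-10). Suspension raised 7 of the 14, CHGA and CHGB among them, and lowered 0 in control cells, at a background of 19.6% higher and 20.5% lower over all genes. In GFI1-expressing cells it raised 5 and lowered 0, at a background of 15.0% higher and 16.3% lower. CPE and PCSK1 rose in suspended control cells by 0.78 ± 0.14 and 1.05 ± 0.26 (edgeR adjusted p = 6.28e-05 and 0.00175).

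Synaptic vesicle and exocytosis genes, to which SYP belongs by function, rose more often than they fell with GFI1 when counted by gene. Their summed level went the other way. It ran from 3398 to 3580 CPM in attached controls against 2788 to 2793 CPM with GFI1. In floating cells it ran from 3205 to 3362 CPM in controls against 2545 to 3030 CPM with GFI1. Of 26 such genes 17 could be tested, and 9 rose, 2 fell and 6 did not pass in attached cells, whereas 8 rose, 3 fell and 6 did not pass in floating cells (all tested genes: 29.5% higher and 32.8% lower attached, 29.3% and 31.1% floating). STX1A, a plasma membrane SNARE, rose by 0.81 ± 0.05 and 0.53 ± 0.05 on the log2 scale (edgeR adjusted p = 3.83e-13 and 1.36e-09), and the vesicle calcium sensor SYT1 rose by 0.63 ± 0.08 and 0.76 ± 0.09 (edgeR adjusted p = 5.34e-07 and 2.23e-08). SNAP25, a SNARE that pairs with STX1A, went in opposite directions, higher with GFI1 in attached cells (0.45 ± 0.05, edgeR adjusted p = 6.72e-08) and lower in floating cells (-0.41 ± 0.06, edgeR adjusted p = 5.11e-07), and the interaction was -0.86 ± 0.08 (edgeR adjusted p = 2.70e-08). The complexin CPLX2 fell (log2 fold changes of -0.41 ± 0.06 attached and -0.34 ± 0.06 floating, edgeR adjusted p = 5.31e-07 and 7.55e-06).

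Neural adhesion molecules and the enzymes that add polysialic acid to NCAM1 numbered 16, of which 8 could be tested. With GFI1, 3 rose and 4 fell in attached cells, and 2 rose and 5 fell in floating cells (all tested genes: 29.5% and 32.8%, 29.3% and 31.1%). CADM1, an immunoglobulin adhesion molecule, fell (log2 fold changes of -3.65 ± 0.08 attached and -3.15 ± 0.09 floating, edgeR adjusted p = 1.06e-22 and 7.72e-20), and L1CAM, a neural adhesion molecule of axons, fell (log2 fold changes of -3.37 ± 0.15 attached and -3.61 ± 0.12 floating, edgeR adjusted p = 3.88e-16 and 1.66e-18). MCAM, an adhesion molecule of melanoma and vessel wall cells, rose by 2.28 ± 0.09 and 2.07 ± 0.10 (edgeR adjusted p = 2.36e-17 and 1.61e-15), and NFASC, which organizes axon segments, rose by 2.01 ± 0.29 and 2.26 ± 0.33 (edgeR adjusted p = 1.78e-06 and 1.71e-06).

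Neuronal cytoskeleton and cytosolic markers, 21 genes with 11 tested, rose in 7 and fell in 3 cases with GFI1 in attached cells, and rose in 6 and fell in 3 in floating cells (all tested genes: 29.5% and 32.8%, 29.3% and 31.1%). Their summed level was lower with GFI1, at 573 to 579 CPM against 760 to 795 CPM in attached controls. In floating cells it was 671 to 698 CPM with GFI1 against 873 to 935 CPM in controls. MAP2, the dendritic microtubule-associated protein, rose by 3.03 ± 0.10 attached and 3.99 ± 0.10 floating on the log2 scale (edgeR adjusted p = 2.21e-19 and 6.38e-21), and the attached value is close to that of NPTX1. Neuronal tubulin TUBB3 rose by 0.57 ± 0.11 and 0.57 ± 0.10 (edgeR adjusted p = 5.52e-05 and 3.03e-05). The axonal protein MAPT fell (log2 fold changes of -1.24 ± 0.13 attached and -1.66 ± 0.13 floating, edgeR adjusted p = 1.20e-08 and 5.91e-11), and DPYSL3, a growth cone protein, fell (log2 fold changes of -1.89 ± 0.05 attached and -1.45 ± 0.05 floating, edgeR adjusted p = 2.89e-20 and 1.88e-18).

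REST, the repressor that silences neuronal genes outside the nervous system, rose with GFI1 by 0.54 ± 0.06 attached and 0.56 ± 0.06 floating (edgeR adjusted p = 6.30e-09 and 4.16e-09). Of REST and its corepressors, a list of 10 that were all tested, 5 rose and 2 fell in attached cells and 5 rose and 3 fell in floating cells (all tested genes: 29.5% and 32.8%, 29.3% and 31.1%). RCOR1, RCOR2 and RCOR3, the CoREST scaffolds, all rose, with RCOR2 highest at 0.97 ± 0.12 and 0.98 ± 0.13 on the log2 scale (edgeR adjusted p = 2.06e-07 and 4.17e-07), while the demethylase KDM1A, which binds them, fell by less, at -0.29 ± 0.04 attached and -0.16 ± 0.04 floating (edgeR adjusted p = 1.85e-06 and 0.00233). When libraries were scaled by total counts alone, each of the 3 falls in floating cells was lost (edgeR adjusted p of 0.501 for KDM1A, 0.645 for HDAC2 and 0.121 for HDAC1), as was that of HDAC2 in attached cells (0.0629). That scaling moved the median of all genes to 0.14 in both GFI1 comparisons, and the share of called genes that were higher from 47.4% to 61.5% with GFI1 in the attached state and from 48.5% to 61.4% in the floating state.

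**Figure D4:**
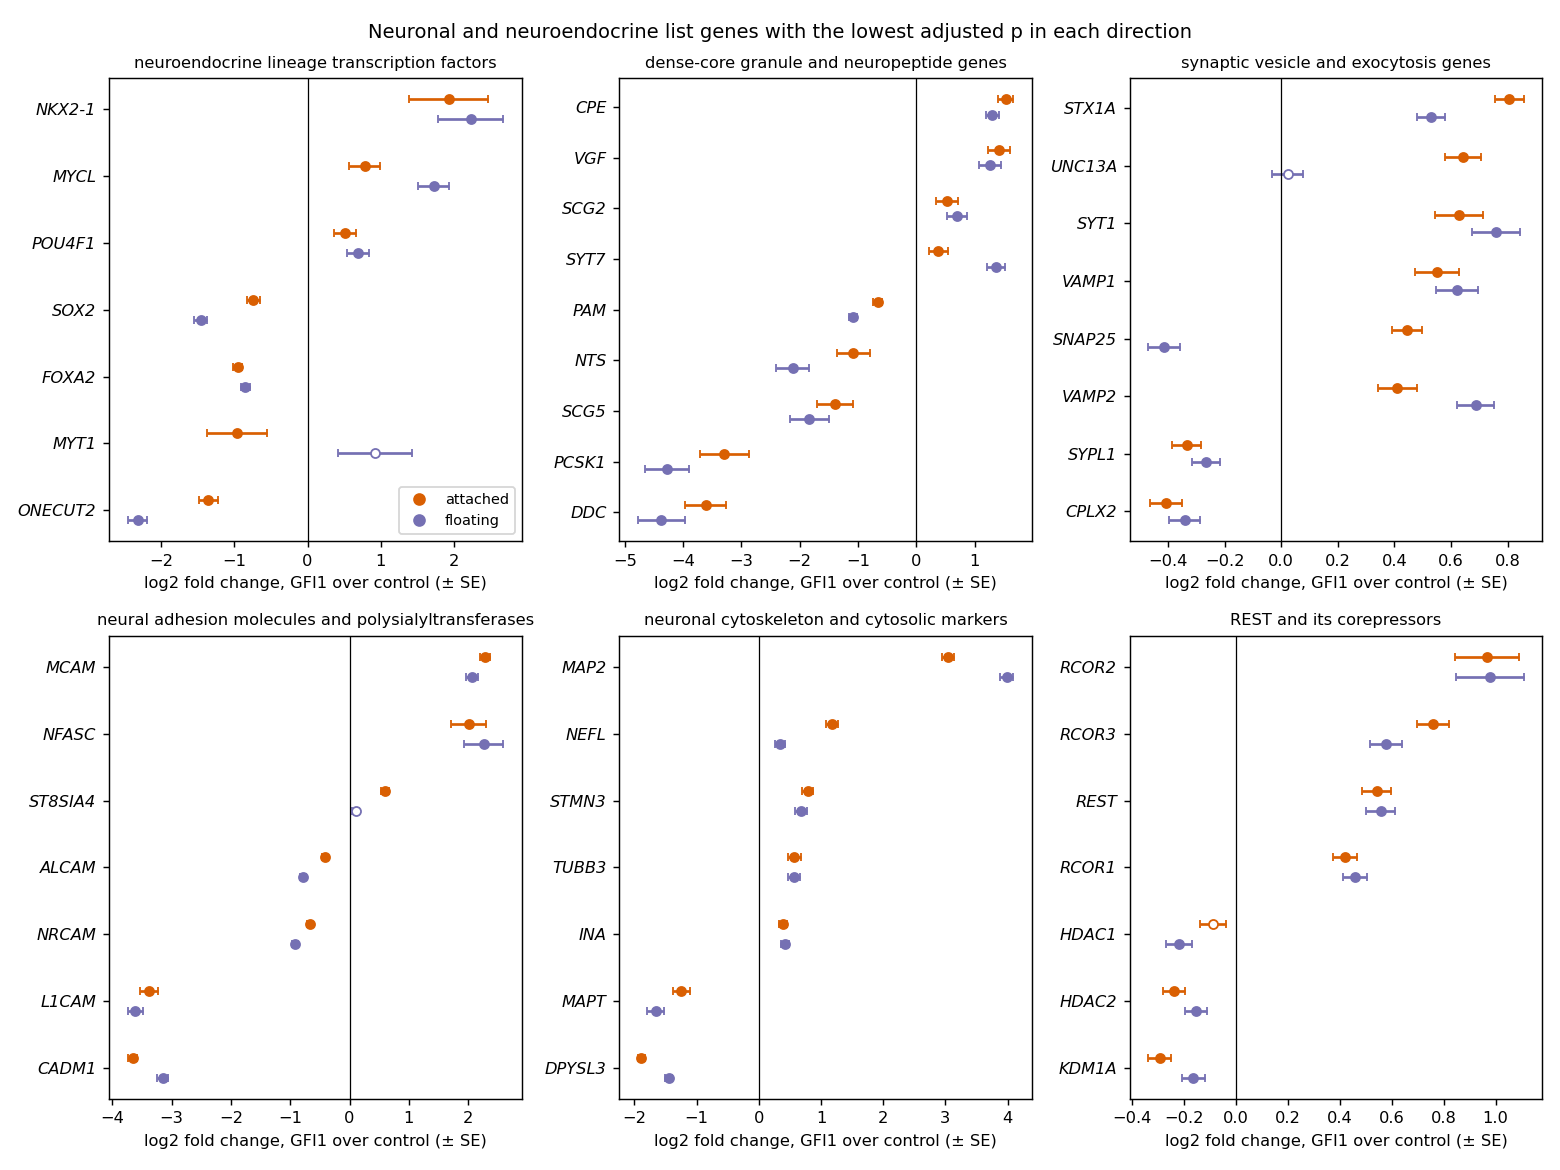
Log2 fold changes of GFI1 over control cells, with bars of 1 SE, for the genes named from 6 lists, with attached cells in orange and floating cells in purple. Filled points had an edgeR adjusted p of 0.05 or less. The genes were taken in both directions, so points on both sides of 0 follow from that choice. SNAP25 lies on opposite sides in attached (0.45) and floating (-0.41) cells.

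Other markers of small cell lung cancer and of other tissues were measured as well. Of 9 tuft-like and other small cell lung cancer markers, 4 could be tested, of which 1 rose and 2 fell with GFI1 in attached cells and 1 rose and 1 fell in floating cells. The riser in both states was DLK1, which passed the filter on low counts through its GFI1 libraries, so its direction follows from the filter. For this list and those below, the shares over all tested genes were 29.5% higher and 32.8% lower attached, and 29.3% and 31.1% floating. DLL3, an inhibitory Notch ligand of neuroendocrine small cell lung cancer, fell in attached cells (-0.59 ± 0.11, edgeR adjusted p = 4.33e-05) and had a value of -0.25 ± 0.11 in floating cells (edgeR adjusted p = 0.0628). YAP1, which is silent in classic neuroendocrine small cell lung cancer, fell (log2 fold changes of -2.55 ± 0.05 attached and -2.75 ± 0.05 floating, edgeR adjusted p = 1.73e-23 and 3.14e-24), and DLK1, a Notch ligand homologue, was at least 8.37-fold higher in attached GFI1 cells against controls at or under 3 counts per library. Of the 12 lung epithelial markers 8 could be tested. NKX2-1 held 2 to 5 counts in attached controls and 3 to 9 in floating controls. It could pass the filter only through its GFI1 libraries, so its place among the risers follows from the filter. With GFI1, 2 rose in attached cells (NKX2-1, 1.93 ± 0.54, and KRT19, 0.82 ± 0.32, edgeR adjusted p = 0.00338 and 0.0314) and 1 in floating cells (NKX2-1, 2.23 ± 0.44, edgeR adjusted p = 0.000115), and the KRT19 call was lost when each of 4 libraries was left out (edgeR adjusted p of up to 0.151, without attached control replicate 3). In each state 5 fell, among them the adhesion protein CDH1, at -4.22 ± 0.07 attached and -4.42 ± 0.08 floating on the log2 scale (edgeR adjusted p = 3.23e-25 and 1.10e-24), KRT8 and KRT18. Of the blood and endothelial markers 3 could be tested, of which 2 rose and 0 fell in attached cells and 2 rose and 1 fell in floating cells. CDH5 could pass the filter on low counts only through its GFI1 libraries, so its place among the risers follows from the filter. The counts of this list therefore describe single genes and say nothing of the list as a set. The myeloid integrin ITGAM fell in floating cells (-1.58 ± 0.37, edgeR adjusted p = 0.000719), the endothelial factor VWF rose (at least 5.04-fold attached, 2.56 ± 0.59 floating, edgeR adjusted p = 0.000577 in floating cells), and the endothelial cadherin CDH5 was at least 18.9-fold higher in attached and at least 22.9-fold higher in floating GFI1 cells, from controls at or under 3 counts per library.

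Genes whose level followed that of a member most closely over the 12 libraries are given as a description, since the libraries fall into 4 groups and share their scaling. For NPTX1 they were MAFK, MELTF and ADAM12, with Pearson correlations of log2 CPM of 0.989, 0.985 and 0.983. MAFK had group means of 165 CPM in attached controls, 415 in attached GFI1, 128 in floating controls and 546 in floating GFI1 cells, the same order as NPTX1. For UCHL1 they were NCALD, MCTS1 and CDC25B, at 0.995, 0.992 and 0.991. For CHGB they were HHIPL2, NKD1 and AHCYL2, at 0.983, 0.977 and 0.966, with HHIPL2 at 11.2, 5.56, 50.3 and 8.62 CPM in the same order of groups. For CHGA, the rarest of these, they were ABCA5, CNNM2 and ZNF175, at 0.974, 0.971 and 0.971. The choice of genes depends on the measure. With Spearman correlation, 1 of the 3 genes stayed for NPTX1 and 1 for UCHL1, and 0 stayed for CHGA and for CHGB.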

How the data were processed

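The authors deposited raw counts of sequenced fragments per gene for 12 poly-A-selected libraries of attached or floating A549 cells. Their methods name Hisat2 and featureCounts on GRCh38, whereas the submitters' processing notes name Bowtie2 and HTSeq. The annotation release is not given in the sources used here. The tests used edgeR 4.0.16 under R 4.3.3. The filterByExpr filter (at least 10 counts, total of at least 15) kept 17829 of 58735 genes, and TMM scaled the libraries. A quasi-likelihood model of 4 group means gave 5 contrasts (n = 3 per group). Two-sided p-values were adjusted per contrast (Benjamini-Hochberg), with a threshold of 0.05. The standard error is the absolute log2 fold change divided by the square root of F, and levels per length use the deposited gene length. Log2 CPM used a prior count of 2. On simulated data, 81.4% of 194 genes changed by 1 log2 unit in attached cells were recovered, with 18 false calls. A simulated comparison without changed genes gave 2 calls.

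The members and the 13 gene lists were chosen with earlier results of these data known. Named were all members, GFI1, REST, the other ubiquitin hydrolases, and per list up to 4 genes in each direction with the lowest adjusted p with GFI1 and a mean of at least 1 CPM in a group, of which examples are printed. For members whose group means differed by at least 2-fold, the 3 most correlated protein-coding genes were named, among those averaging at least 1 log2 CPM. Exonic overlaps came from GENCODE v44. Alternatives included DESeq2 1.42.0, other scalings, no filter, a 2-fold threshold, a replicate block and leaving out each library.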

Additional observations from a re-analysis of the deposited data

Results flagged for a closer look

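The response to suspension differed between control and GFI1-expressing cells, by the interaction term of the edgeR fit (adjusted p of 0.05 or less), for NPTX1 (3.80 on the log2 scale) and CHGB (-1.29). For NPTX1 the suspension effect was -1.97 in control and 1.83 in GFI1-expressing cells, and for CHGB 1.52 and 0.24.

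The genes named from the lists were picked by the adjusted p of their GFI1 effects, and the interaction is the difference of those effects. How many of them passed is therefore not a separate result. Over all tested genes the interaction was past the threshold for 10.8% (4.76% positive, 6.01% negative). Among the named genes, the interaction was positive for PTX3 (1.47), SYT7 (0.99), MAP2 (0.95), MYCL (0.94), CADM1 (0.50), DPYSL3 (0.44) and KRT8 (0.38). It was negative for ONECUT2 (-0.97), SNAP25 (-0.86), NEFL (-0.84), SOX2 (-0.72), UNC13A (-0.62), ST8SIA4 (-0.49), PAM (-0.43), ALCAM (-0.37), STX1A (-0.28) and NRCAM (-0.25). The calls of PTX3, MYCL and CADM1 were not kept when single libraries were left out. For PTX3 the adjusted p rose to at most 0.102 (without attached control replicate 3), for MYCL to at most 0.133 (without floating control replicate 1) and for CADM1 to at most 0.122 (without floating GFI1 replicate 3). The MYCL call was also lost with DESeq2 (0.0748), with no filter (0.0536), and when scaled by library size (0.0541), RLE (0.0505) or the upper quartile (0.0504).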

How the results depend on the processing

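The count of members past the threshold moved with GFI1 in attached cells to 2 when a 2-fold change was also asked for (NPTX1 and CHGA), with GFI1 in floating cells from 4 to 3 under the same rule, and in suspended GFI1-expressing cells to 2 without floating GFI1 replicate 3. Over the libraries left out in turn, it ran from 4 to 5 with GFI1 in attached cells, was 4 in floating cells and 3 in suspended control cells, and ran from 1 to 2 in suspended GFI1-expressing cells and from 2 to 3 for the interaction. The 2-fold threshold left 3247, 3078, 909, 500 and 241 genes in the 5 comparisons, in the order of the report, in place of 11102, 10770, 7152, 5577 and 1919. Values near 0 changed sign for SYP in suspended GFI1-expressing cells (-0.128 to 0.034 over the libraries left out), UCHL1 in suspended control cells (-0.018 to 0.067), UCHL3 in floating cells (-0.011 to 0.491) and BAP1 in attached cells (0.026 by upper quartile scaling, 0.12 by library size), and the cause was not tested. Libraries with the same replicate number did not deviate together (correlations from -0.016 to 0.009, and 3 of 12 libraries correlated best with their own number), and a replicate block left the members called at 5, 4, 3, 1 and 2 while the MYCL interaction missed the threshold (adjusted p = 0.0590). Of the members' values under the alternatives, 479 kept their direction and side of the threshold, 4 fell short of it, 2 newly passed and 5 changed sign. Of those of the other named genes, 3713 kept both, 111 fell short, 1 newly passed and 3 changed sign. Rare genes such as CHGA, at 7 to 14 counts in attached controls, are limited by depth, and 4 members could not be tested at all.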
